A study of Sus scrofa with 16 samples.

Results

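Liver transcripts of pigs fed beef tallow were compared with the equal-weight mean of pigs fed 2 plant oils, rapeseed oil and coconut oil. The comparison took in all 16 pigs of the series, 5 on beef tallow (group B, 2 gilts and 3 barrows), 5 on rapeseed oil (group R, 3 gilts and 2 barrows) and 6 on coconut oil (group C, 3 gilts and 3 barrows), assigned by the diet in each sample title. All were offspring of (Polish Landrace x Polish Large White) sows and (Duroc x Pietrain) boars, fattened in single pens on feeds of like energy and protein content that differed in the added fat. No group was fed without added fat here, so every difference is one between fats. Only the 3′ end of each mRNA was sequenced, so a read stands for a transcript whatever its length, and every pig gave 1 library. The study had left out other samples for low sequencing quality before these 16 remained.

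Beef tallow is rich in long-chain saturated and monounsaturated fatty acids, rapeseed oil in unsaturated fatty acids, and coconut oil in medium-chain saturated fatty acids. Each was only a part of the feed. The hepatocyte turns such fats into ketone bodies, lipoproteins and, with cholesterol, bile acids, and its sterol synthesis genes are switched on by the factor SREBP-2 when membrane cholesterol is low. It also makes most plasma proteins, so it has a large endoplasmic reticulum, whose chaperones are raised by the unfolded protein response, and it changes its secreted proteins in the acute phase response under the cytokines IL-6 and IL-1.

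Of 6891 genes tested, 71 passed an adjusted p of 0.05 in tallow against the mean of both oils, which is 1.03% of the genes, and 49 (0.711%) were higher and 22 (0.319%) lower with tallow. All adjusted p-values are from edgeR's quasi-likelihood test with Benjamini-Hochberg adjustment over the 6891 genes. Differences are on the log2 scale with their standard error (SE), levels are normalized counts (CPM, scaled to a common library size), and a mean carries its SD over the pigs. The called differences reached from 0.56 to 1.75 among rises and to -2.37 among falls, while the median difference of all genes was 0.010. Genes that rose encode chaperones of the endoplasmic reticulum, acute phase proteins, the receptor EGFR, the histidine-degrading enzyme HAL and the urea cycle enzyme CPS1. Genes that fell include CYP7A1, which starts bile acid synthesis, a pair of cholesterol synthesis enzymes, the fatty acid-binding protein FABP1 and the acyl-CoA synthetase ACSM3. Without adjustment, 1080 genes (15.7%) had a p below 0.05, 618 higher and 462 lower.

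The pigs' own levels separated completely for few of these genes. All 5 tallow pigs lay above all 11 others in 15 of the 71 genes and below them in 5, against 0.305% and 0.145% of all genes tested, and in the other 51 the groups overlapped. A stricter question is whether tallow differed from each oil taken singly, and by the larger of both p-values 2 genes passed after adjustment (0.029%), LITAF and PID1, with 370 (5.37%) at an unadjusted p below 0.05. This count rested on single pigs, since with each pig left out in turn 0 genes passed in 12 of 16 fits. The remaining called genes therefore passed against the mean of the oils without passing this test.

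Between the oils themselves, 6 genes (0.0871%) passed an adjusted p of 0.05 for coconut minus rapeseed oil in the same fit. In 49 of the 71 genes the oils differed with an unadjusted p of 0.05 or more. Over all genes tested, 10.9% had a p below 0.05 between the oils, so 0.05 or more was the usual outcome. In 17 of the 71, coconut oil was shifted from rapeseed oil to the tallow side at an unadjusted p below 0.05, as were 6.95% of all genes. In 5 of the 71, ITIH4, FGA, DDX39B, PDIA3 and ZNRF1, it was shifted away from tallow, as were 3.99% of all genes. Both comparisons use the same oil pigs, so these counts are descriptions. The genes past both thresholds were EGFR, HSPA8 and BAG3, all with rapeseed oil lowest and coconut oil in between.

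**Figure D1:**
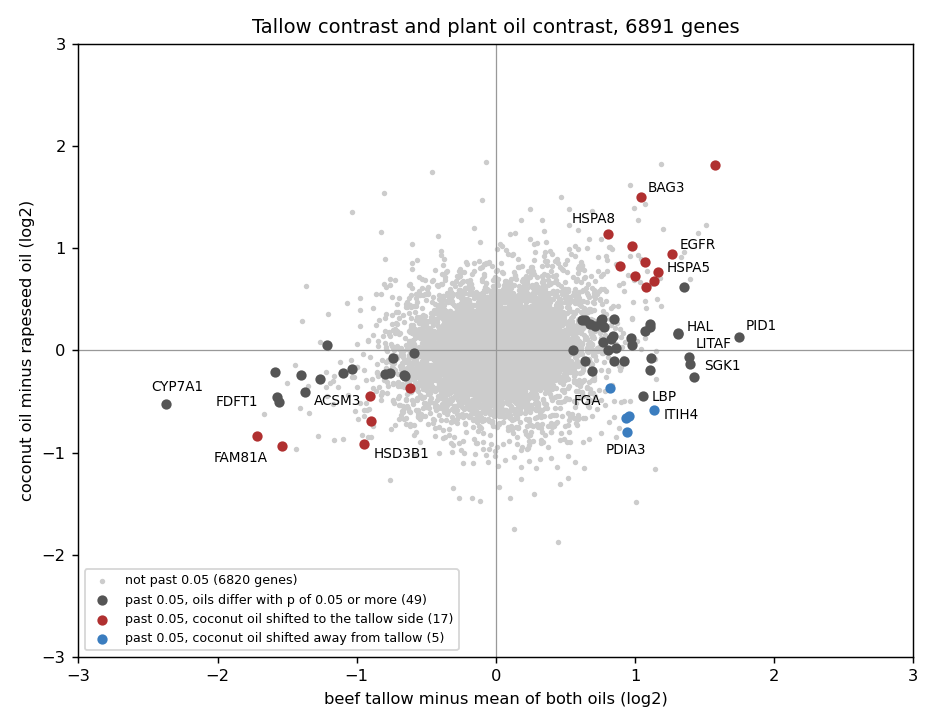
Each point is 1 of the 6891 genes, with the log2 difference of beef tallow from the mean of both oils on the x axis and that of coconut oil from rapeseed oil on the y axis. Of the 71 genes past 0.05, 49 are dark grey (oils with a p of 0.05 or more), 17 red (coconut oil on the tallow side) and 5 blue (coconut oil on the far side), with PID1 farthest right at 1.75 and CYP7A1 farthest left at -2.37.

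Library depth was low, with 705669 to 1767671 reads on genes per pig, and the ranges of the diets overlapped. Tallow pig 3 stood apart on the first principal component, which held 19.3% of the variance, and 33.2% of its reads had several alignments against 19.3% to 22.8% in the other tallow pigs and 15.4% to 38.1% in the oil pigs. The labelled tissue was checked by its markers, and the summed CPM of 10 hepatocyte markers (9 with an identifier) ran from 76678 to 208113 per pig, with overlapping diets. Of 39 called genes chosen by the naming rule or named from the study's table, 11 did not pass 0.05 without tallow pig 3, and their values without it stand beside them.

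Tallow pig 4 carried more of the calls than any other animal. Without it 12 genes passed, 8 higher and 4 lower, all of them among the 71. They were EGFR, LITAF, PID1, HSPA5, ITIH4, HAL, POLR1G and ATF5, which were higher, and CYP7A1, FAM81A, ANK3 and the unnamed gene ENSSSCG00000000373, which were lower. Every other call was lost without that pig, with adjusted p-values up to 0.156 among the named genes (APCS), while none of the named genes changed direction. Leaving out rapeseed pig 1, 3 or 5 gave 42, 45 and 37 genes, leaving out tallow pig 1 or 5 gave 47 and 34, and leaving out rapeseed pig 4 gave 120. Without tallow pig 3 there were 61 genes, 39 of them among the 71.

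**Figure D2:**
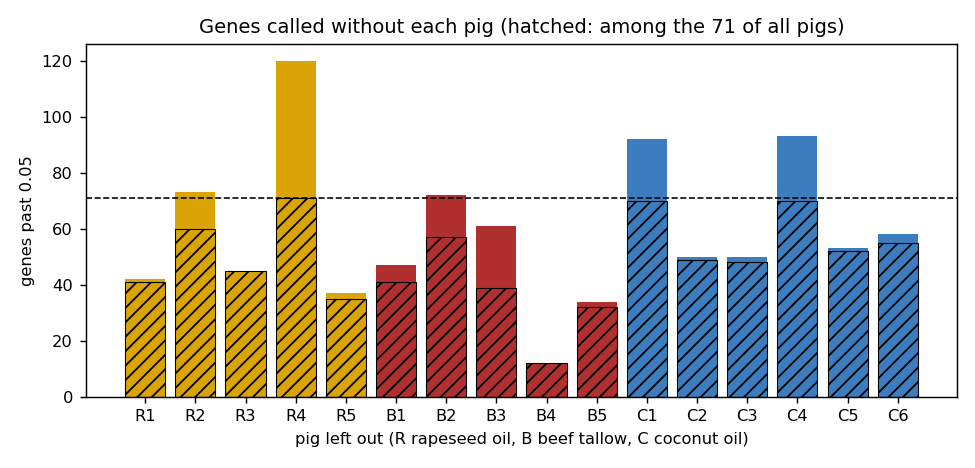
Bars give the number of genes past 0.05 in the tallow comparison when the pig on the x axis is left out, coloured by its diet, with the hatched part among the 71 genes of all pigs (dashed line). The count runs from 12 without tallow pig 4 to 120 without rapeseed pig 4.

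The genes that passed against each oil singly were LITAF and PID1. LITAF (chr3:31482605-31576211) encodes an endosomal membrane protein named for its induction by lipopolysaccharide, and its symbol here comes only from the study's table. Its levels were 323, 255, 299, 351 and 302 CPM in tallow pigs 1 to 5, 110.3, 182, 76.3, 171 and 58.0 in rapeseed pigs 1 to 5, and 91.4, 116 and 129.7 (lowest, median and highest) in coconut pigs. Every tallow pig was above every other pig, and both oils had like means of 119 ± 55.3 and 115 ± 13.6 CPM against 306 ± 35.3 with tallow. The tallow difference was 1.38 ± 0.19 (adjusted p = 0.000888), and the oils differed by -0.06 with a 95% interval of -0.53 to 0.41. In the test by the larger of the p-values against each oil, the adjusted p was 0.0329. With 1 pig left out LITAF passed this test in 4 of the 16 fits (0.00807 to 0.185 over all of them). Against the mean of the oils LITAF passed in all 16.

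PID1 (chr15:130080821-130215548), an adaptor protein studied for its part in the insulin signalling of fat and muscle cells, had the largest rise of all called genes. Tallow pigs had 72.6, 67.9, 51.2, 78.6 and 59.7 CPM, rapeseed pigs 17.7, 33.9, 6.46, 21.6 and 12.8, and coconut pigs 8.47, 20.1 and 32.1. The lowest tallow pig was thus above the highest oil pig. The difference of 1.75 ± 0.24 corresponds to 3.35-fold (adjusted p = 0.000888). In the test by the larger of the p-values against each oil, the adjusted p was 0.0329. With 1 pig left out PID1 passed this test in 3 of the 16 fits (0.00807 to 0.168 over all of them). Without any 1 pig the difference ran from 1.65 to 1.90, and against the mean of the oils it passed in all 16 fits.

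Positive acute phase proteins, which the liver releases in larger amounts during inflammation, gave 3 called genes of 13 tested, all higher (1.03% of all genes were called). They were ITIH4, LBP and APCS, and the median tallow difference of the 13 was 0.23 against 0.010 for all genes, with 9 above 0 and 4 below. Without tallow pig 4 there was 1 call. The study had reported ITIH4 and LBP as changed in these same pigs, so their calls are no independent result for the list. ITIH4 (chr13:34928455-34948250) encodes the inter-alpha-trypsin inhibitor heavy chain known in pigs as the major acute phase protein. It stood at 2037, 2226, 2049, 3581 and 2294 CPM in tallow pigs, 1199, 1950.3, 842, 1457 and 1329 in rapeseed pigs and 634, 853 and 1203 in coconut pigs. All tallow pigs were above all others, the nearest being rapeseed pig 2, and tallow pig 4 was the highest. The difference was 1.14 ± 0.18 (adjusted p = 0.00337), made up of 0.85 ± 0.22 from rapeseed oil and 1.43 ± 0.21 from coconut oil. Coconut oil thus had the lowest level, -0.59 from rapeseed oil (adjusted p = 0.319).

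LBP (chr17:41398935-41429467), the plasma protein that hands bacterial lipopolysaccharide to CD14, had 198, 211, 261, 308 and 206 CPM in tallow pigs, 131, 79.0, 206, 162 and 88.5 in rapeseed pigs and 75.4, 89.3 and 149 in coconut pigs. The tallow range overlapped that of rapeseed oil through rapeseed pig 3, while all coconut pigs were lower. Its difference was 1.06 ± 0.20 (adjusted p = 0.013), or 0.94 (adjusted p = 0.063) without tallow pig 4. APCS (chr4:90900585-90901854), the pentraxin serum amyloid P, had means of 3164 ± 907, 1713 ± 411 and 1849.8 ± 565 CPM with tallow, rapeseed oil and coconut oil, a difference of 0.83 ± 0.20 (adjusted p = 0.0446). Its groups overlapped, and of 16 fits with 1 pig left out, it passed in 8.

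A further 4 acute phase genes have a symbol only in the gene table of the study, which listed them because they changed, so they stand outside the counts. FGA (chr8:74574870-74584202), the fibrinogen alpha chain, was among the 71. Its levels were 23456, 22898, 44431, 28622 and 25748 CPM in tallow pigs, 18289, 19661, 17206, 21840.4 and 16405 in rapeseed pigs and 12142, 14248 and 17908 in coconut pigs. All tallow pigs were the highest, with pig 3 far above the rest, and the difference of 0.82 ± 0.15 (adjusted p = 0.0135) was 0.61 (adjusted p = 0.0312) without that pig. HP, haptoglobin, was also highest in all 5 tallow pigs, at 35570.2, 39132, 57359, 43304 and 36168 CPM against a highest oil value of 33341, yet its difference of 0.52 ± 0.13 had an adjusted p of 0.0596. SAA2, serum amyloid A, had a difference of 1.40 ± 0.38 (adjusted p = 0.074) and ORM1, orosomucoid, one of -0.86 ± 0.28 (adjusted p = 0.134). The serum amyloid genes are near-identical copies, so their counts are uncertain.

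Other acute phase members did not pass. C-reactive protein, CRP, had means of 3942 ± 1920.4, 2219 ± 608 and 2490.2 ± 1014 CPM with tallow, rapeseed oil and coconut oil, and a difference of 0.75 ± 0.26 (adjusted p = 0.153). Complement C3 had a difference of -0.11 ± 0.13. Among 32 complement and coagulation genes 0 passed with edgeR and 1 with DESeq2, and the median was -0.019. Of the 32, 5 had an unadjusted p below 0.05, 3 higher and 2 lower, against 15.7% of all genes. The smallest p of that list was for KLKB1, plasma prekallikrein, at -0.51 ± 0.13 (adjusted p = 0.0621).

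Negative acute phase proteins, which fall in the same response, had 1 called gene of 10, lower with tallow (0.319% of all genes). It was the thyroid hormone and retinol carrier TTR. Its levels were 4741, 3941, 3631, 3594 and 3049 CPM in tallow pigs, 8108, 5644, 6010.1, 6293 and 6562 in rapeseed pigs and 4517, 5301 and 7608 in coconut pigs. Tallow pig 1 lay above the lowest coconut pigs, and the other 4 tallow pigs lay below all oil pigs. The difference was -0.66 ± 0.15 (adjusted p = 0.0342), and it passed in 8 of the 16 fits, with -0.65 (adjusted p = 0.0595) without tallow pig 3. Albumin, ALB, had a difference of -0.32 ± 0.25 (adjusted p = 0.549), and the median of the 10 was -0.21, with 2 above 0 and 8 below.

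Among 22 cytokine, NF-kB and STAT3 signalling genes, 2 passed, both higher (0.711% of all genes), with a median of 0.25. They were PID1 and ALPL, the tissue-nonspecific alkaline phosphatase, and neither is a kinase or transcription factor of these pathways. The study had chosen both for qPCR as changed genes of these same pigs, so their calls here are no independent result for the list. LITAF also belongs to the list but stands outside this count, having its symbol only from the study's table. There were 3 calls without tallow pig 3 and 1 without tallow pig 4. ALPL had means of 69.9 ± 21.8, 40.0 ± 5.24 and 40.6 ± 13.1 CPM and a difference of 0.81 ± 0.20 (adjusted p = 0.0489), which passed in 4 of the 16 fits. The pathway's own components gave values that did not pass, such as 0.81 ± 0.32 for STAT3 (adjusted p = 0.217), 0.90 ± 0.33 for its inhibitor SOCS3 (adjusted p = 0.168), and 0.56 ± 0.15 for the receptor IL4R (adjusted p = 0.0619). In all, 7 of the 22 had an unadjusted p below 0.05, all higher (8.97% of all genes), and the NF-kB subunits NFKB1 and RELA had 0.15 and 0.12.

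A pair of genes outside these lists, picked after their values were seen, belong to macrophages. CD163, the haemoglobin scavenger receptor of Kupffer cells, had 222, 161, 192, 178 and 197 CPM in tallow pigs, 98.6, 123, 114, 131 and 85.6 in rapeseed pigs and 100.3, 130.3 and 169 in coconut pigs, a difference of 0.64 ± 0.14 (adjusted p = 0.0276). TLR2, a receptor for bacterial lipoproteins, had means of 29.2 ± 5.95, 14.6 ± 7.85 and 12.8 ± 2.90 CPM and a difference of 1.11 ± 0.24 (adjusted p = 0.0249). In bulk liver, more cells of a type and more RNA per cell cannot be told apart. Of 10 Kupffer cell markers tested CD163 was the 1 called (0.711% of all genes were called higher), and 8 were above 0. The summed CPM of the markers ran from 1144 to 2119 with tallow, 910 to 1513 with rapeseed oil and 964 to 1217 with coconut oil. Neutrophil markers summed to at most 32.8 CPM in any pig, and MPO and ELANE were at 0 reads in all pigs. The part of these cells in the acute phase values was not tested.

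**Figure D3:**
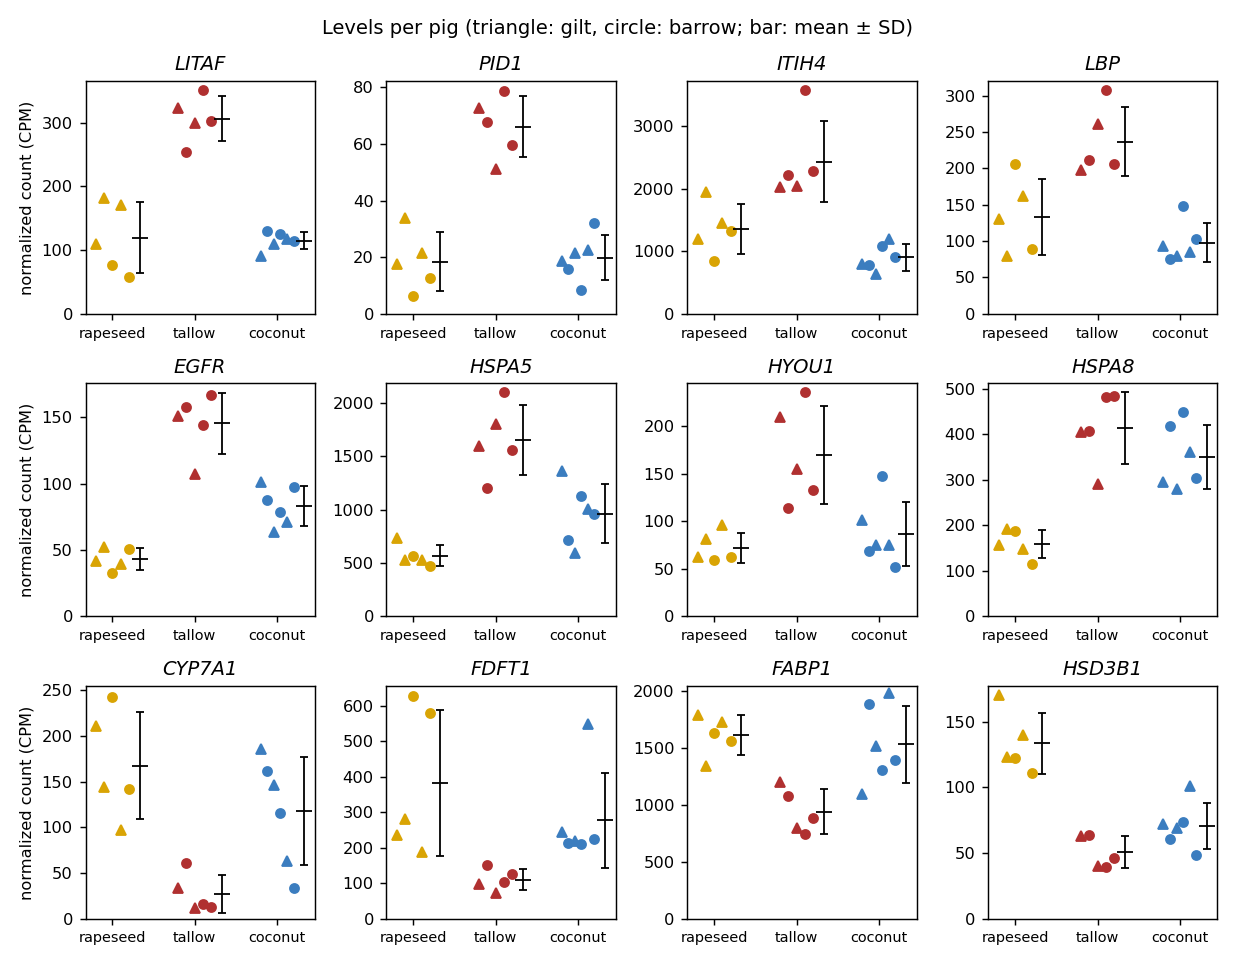
Normalized counts (CPM, from 0) of 12 genes in each pig, by diet, with gilts as triangles, barrows as circles and the mean ± SD beside them. All 5 tallow pigs lie above the other 11 for LITAF, PID1, ITIH4 and EGFR and below them for FDFT1, while HSPA8 overlaps between tallow and coconut oil.

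Of 26 genes of endoplasmic reticulum folding and the unfolded protein response, 4 were called, all higher (0.711% of all genes). A further count, at an unadjusted p below 0.05, gave 14, all higher (8.97% of all genes). In all, 24 were above 0, with a median of 0.38. The called genes were HSPA5, HYOU1, MANF and PDIA3. The study had reported HSPA5, HYOU1 and PDIA3 as changed in these same pigs, so their calls are no independent result for the list. DESeq2, which called more genes in all than edgeR, called 6. With edgeR there were 3 calls and a median of 0.38 without tallow pig 3. Without tallow pig 4 there was 1 call and a median of 0.34, both settings chosen after seeing the data.

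HSPA5 (chr1:265930044-265934959) encodes BiP, the main Hsp70 chaperone of the endoplasmic reticulum, which the unfolded protein response raises. Its levels were 1601, 1205, 1803, 2101 and 1559.6 CPM in tallow pigs, 731, 531, 564, 532 and 474 in rapeseed pigs and 597, 979 and 1366 in coconut pigs. Tallow pigs were all above rapeseed pigs, the mean of the coconut pigs lay between, and the lowest tallow pig overlapped the highest coconut pig. The difference of 1.16 ± 0.17 (adjusted p = 0.00108) split into 1.55 ± 0.21 from rapeseed oil and 0.78 ± 0.19 from coconut oil, and it passed in all 16 fits, at 1.05 to 1.25.

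HYOU1 (chr9:46264929-46277056), the large Hsp70-like chaperone that exchanges the nucleotide of BiP, had 210.1, 114, 156, 236 and 133 CPM in tallow pigs, 62.5, 81.0, 59.5, 95.8 and 62.0 in rapeseed pigs and 51.8, 75.4 and 148 in coconut pigs. Tallow pigs were above all rapeseed pigs, and the range of the coconut pigs reached into that of the tallow pigs through coconut pig 4. The difference was 1.11 ± 0.21 (adjusted p = 0.0132). MANF, a small secreted protein released under stress of this compartment, had means of 343 ± 97.3, 167 ± 47.8 and 182 ± 67.8 CPM and a difference of 0.97 ± 0.21 (adjusted p = 0.0249). It passed in 12 of the 16 fits.

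PDIA3 (chr1:127786174-127814096), the disulfide isomerase of the calnexin cycle, differed in its order of diets. Tallow pigs had 278, 229, 681, 439.9 and 324 CPM, rapeseed pigs 229.5, 377, 225, 229.7 and 281, and coconut pigs 104, 156 and 209.6. Tallow and rapeseed pigs overlapped widely, and the level with coconut oil was the lowest. Its difference of 0.94 ± 0.22 (adjusted p = 0.0349) fell to 0.64 (adjusted p = 0.11) without tallow pig 3, and it passed in 7 of the 16 fits.

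HSP90B1, the Hsp90 of the same compartment, is spread over 2 identifiers, so its reads may be split. The identifier ENSSSCG00000034072, named in the study's table, had means of 828 ± 213, 442 ± 112 and 545 ± 61.3 CPM, with all tallow pigs highest, and a difference of 0.75 ± 0.16 (adjusted p = 0.0239, 0.59 and 0.0633 without tallow pig 3). The identifier that carries the symbol in the reference had 0.38 ± 0.17 (adjusted p = 0.288). The cochaperone DNAJB11 had 0.76 ± 0.21 (adjusted p = 0.0662) and the stress kinase EIF2AK3 0.73 ± 0.21 (adjusted p = 0.0886), neither past 0.05. XBP1 and ATF6, transcription factors of the unfolded protein response, had 0.07 ± 0.15 and 0.20 ± 0.15. Total XBP1 counts do not show its splicing.

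Heat shock genes, mostly cytosolic, gave 2 called genes of 19, both higher (0.711% of all genes), and 0 without tallow pig 4. The list as drawn up also held mitochondrial chaperones and the heat shock factor HSF1 itself. In the 2 called genes, coconut oil lay with tallow. The study had reported both, HSPA8 and BAG3, as changed in these same pigs, so their calls are no independent result for the list. HSPA8 (chr9:49982278-49986760), the constitutive cytosolic Hsp70, had 404.2, 407, 291, 482 and 483 CPM in tallow pigs, 156, 191, 187, 147 and 114 in rapeseed pigs and 279, 331 and 448 in coconut pigs. All rapeseed pigs were below every pig of the other diets, while tallow and coconut pigs overlapped. The tallow difference of 0.81 ± 0.15 (adjusted p = 0.0137) consisted of 1.38 ± 0.19 from rapeseed oil and 0.24 ± 0.18 from coconut oil, the latter with a 95% interval of -0.13 to 0.60. Coconut oil differed from rapeseed oil by 1.14 ± 0.18 (adjusted p = 0.0188).

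BAG3 (chr14:129510240-129533998), the Hsp70 cochaperone of selective autophagy, showed the same order. Its levels were 646, 588, 232, 942 and 388 CPM in tallow pigs, 155, 171, 132, 232 and 117 in rapeseed pigs and 359, 409 and 586 in coconut pigs. Tallow pig 3 was at the level of the highest rapeseed pig and tallow pig 4 the highest of all. The difference was 1.04 ± 0.23 (adjusted p = 0.0249), 1.24 (adjusted p = 0.00308) without tallow pig 3, and against coconut oil alone 0.29 ± 0.26, with a 95% interval of -0.25 to 0.83. It passed in 10 of the 16 fits. Over the list of 19 the median was 0.27 against the mean of the oils, 0.40 against rapeseed oil, 0.047 against coconut oil and 0.30 for coconut minus rapeseed oil. HSPH1 and HSP90AA1 had 0.50 ± 0.19 (adjusted p = 0.189) and 0.26 ± 0.14 (adjusted p = 0.367). The Hsp70 genes share long stretches of sequence, and reads with several alignments were counted on no gene.

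EGFR (chr9:139302410-139474632), the receptor for epidermal growth factor, which hepatocytes carry in large numbers and use in regeneration, had the smallest p of all genes. Its levels were 151, 158, 107, 144 and 167 CPM in tallow pigs, 41.9, 52.3, 32.3, 39.1 and 51.1 in rapeseed pigs and 63.2, 83.2 and 101 in coconut pigs. The 3 diets did not overlap at all, with rapeseed oil lowest, coconut oil in the middle and tallow highest. The difference was 1.27 ± 0.15 (adjusted p = 0.000146), with 1.74 ± 0.19 from rapeseed oil, 0.80 ± 0.17 from coconut oil and 0.94 ± 0.18 between the oils (adjusted p = 0.0398). It passed in all 16 fits, at 1.21 to 1.36. Its adjusted p was 3.58e-05 against rapeseed oil alone and 0.0624 against coconut oil alone. In the test by the larger of both p-values it was 0.187.

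**Figure D4:**
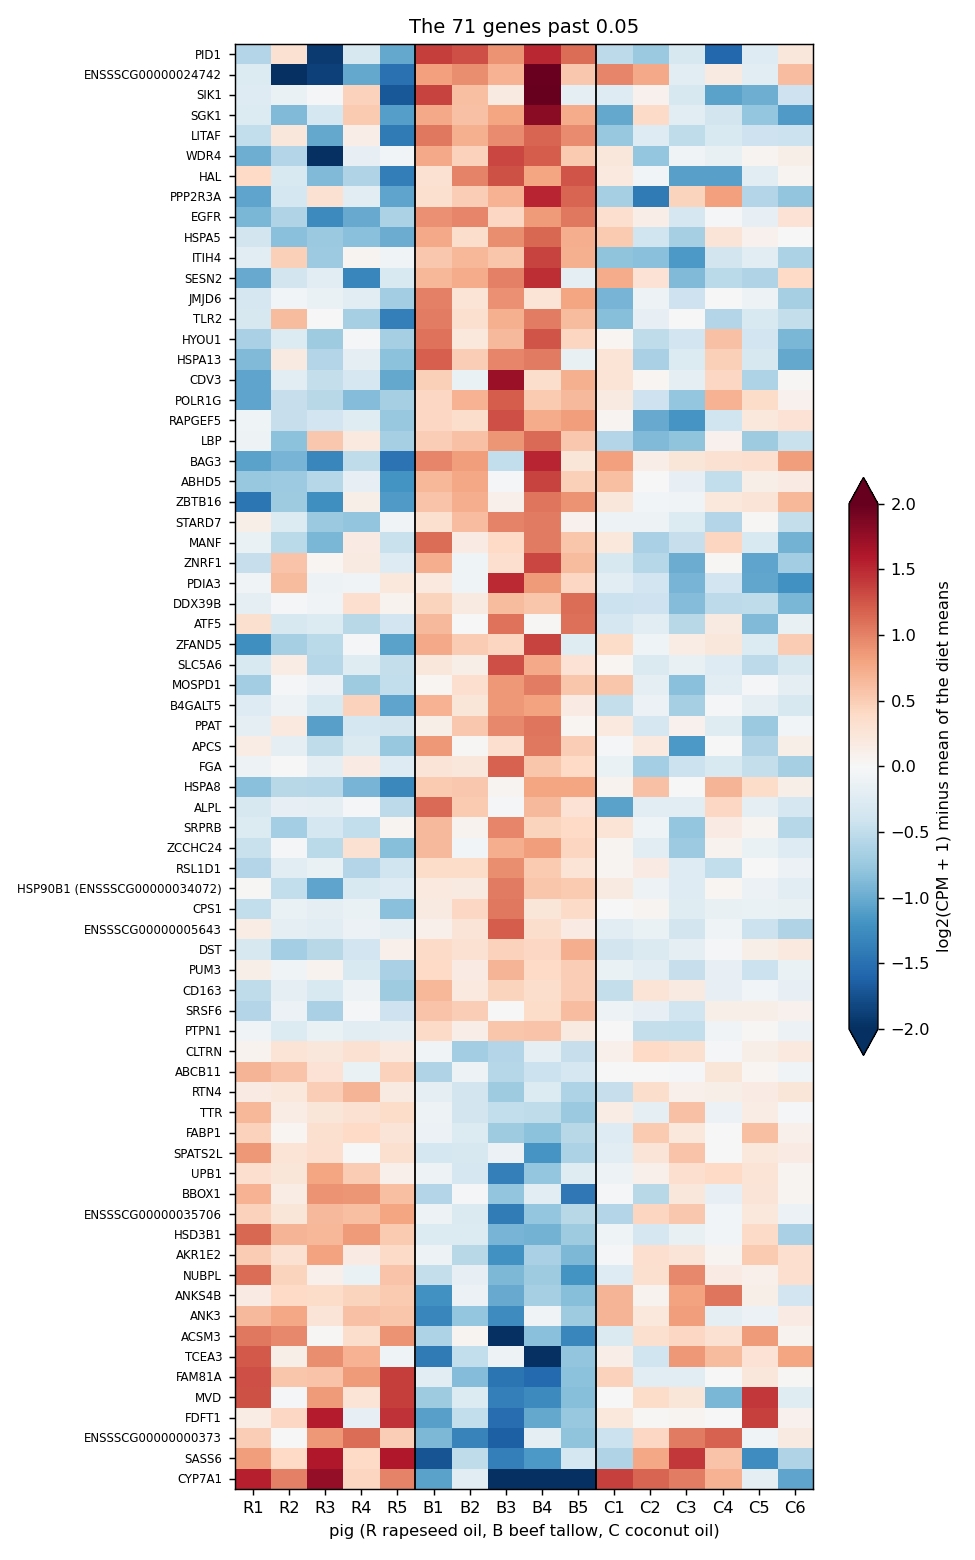
Each row is 1 of the 71 genes past 0.05, ordered by its tallow difference, each column is 1 pig, and the colour is log2(CPM + 1) minus the mean of the diet means, on a scale that ends at 2 in either direction. PID1 is at the top and CYP7A1 at the bottom, coconut pigs share the colour of rapeseed pigs in some rows (LITAF) and lie between in others (EGFR), and tallow pigs 3 and 4 hold many of the strongest colours.

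Sterol genes lay mostly on the opposite side of 0. Of 21 genes of cholesterol synthesis and uptake, 2 were called, both lower (0.319% of all genes), 13 had an unadjusted p below 0.05, all lower (6.7% of all genes), and 20 of the 21 were below 0, with a median of -0.56. The median was -0.57 from rapeseed oil and -0.58 from coconut oil. Without tallow pig 3 there was 1 call and a median of -0.47. Without tallow pig 4 there were 0 calls and a median of -0.46, both settings chosen after seeing the data. DESeq2, which called more genes in all than edgeR, called 5. The study had reported both called genes, FDFT1 and MVD, as changed in these same pigs, so their calls are no independent result for the list.

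FDFT1 (chr14:14976259-15010701), squalene synthase, the first enzyme committed to sterols, had 98.6, 151, 72.9, 103 and 125 CPM in tallow pigs, 235, 281, 628, 189 and 580.2 in rapeseed pigs and 212, 222 and 548 in coconut pigs. All tallow pigs were below all others, and the oil groups were wide, with rapeseed pigs 3 and 5 and coconut pig 5 far above their fellows. The difference was -1.57 ± 0.30 (adjusted p = 0.0137), a 2.97-fold lower level. MVD (chr6:1008100-1014303), mevalonate diphosphate decarboxylase, had 9.93, 13.8, 5.91, 6.37 and 8.85 CPM in tallow pigs, 41.9, 16.4, 31.0, 20.6 and 45.2 in rapeseed pigs and 8.47, 18.5 and 46.5 in coconut pigs. Its groups overlapped through coconut pig 4, and its difference of -1.56 ± 0.36 (adjusted p = 0.0355) passed in 7 of the 16 fits and was -1.42 (adjusted p = 0.0853) without tallow pig 3.

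Other enzymes of the pathway had differences of like sign that did not pass. HMGCS1, which makes HMG-CoA, had means of 111 ± 50.7, 281 ± 192 and 239 ± 151 CPM and a difference of -1.22 ± 0.38 (adjusted p = 0.111). SQLE, squalene epoxidase, had -0.96 ± 0.28 (adjusted p = 0.0923). INSIG1, the retention protein that is itself an SREBP target, was at 391 ± 142 CPM with tallow against 335 ± 232 and 457 ± 139, a difference of 0.00 ± 0.31.

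CYP7A1 (chr4:74343101-74372628), the rate-limiting enzyme of bile acid synthesis from cholesterol, had the largest fall of all called genes. Its levels were 33.6, 61.5, 11.8, 15.9 and 13.3 CPM in tallow pigs, 211, 145, 243, 96.8 and 143 in rapeseed pigs and 33.8, 131 and 186 in coconut pigs. Tallow pigs were all below the rapeseed pigs, while coconut pigs spread from the tallow range to the rapeseed range, with coconut pig 6 at the level of tallow pig 1. The difference was -2.37 ± 0.41 (adjusted p = 0.0095), a 5.18-fold lower level, with -2.63 ± 0.45 from rapeseed oil and -2.11 ± 0.44 from coconut oil. The oils differed by -0.52, with a 95% interval of -1.32 to 0.28. It passed in all 16 fits, at -2.89 to -2.16.

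Of 16 bile acid genes, 2 were called, both lower (0.319% of all genes), with a median of -0.14. The other was ABCB11 (chr15:75402296-75487092), the pump that exports bile salts into the canaliculus. It had 271, 383, 278, 307 and 325 CPM in tallow pigs, 664, 614, 502, 378 and 569 in rapeseed pigs and 392, 416 and 489 in coconut pigs. Tallow pig 2 overlapped rapeseed pig 4, and coconut pigs lay between the tallow and most rapeseed pigs. Its difference of -0.62 ± 0.14 (adjusted p = 0.0342) passed in 7 of the 16 fits and was -0.58 (adjusted p = 0.0611) without tallow pig 3. The list had 1 call without tallow pig 3, 1 without tallow pig 4 and 3 with DESeq2, which called more genes in all. The study had reported CYP7A1 and ABCB11 as changed in these same pigs, so their calls are no independent result for the list. The receptor pair that receives the ileal hormone FGF19, KLB and FGFR4, had -0.999 ± 0.30 (adjusted p = 0.0954) and -0.90 ± 0.26 (adjusted p = 0.0879). The repressor NR0B2 (SHP) had 0.71 ± 0.34 (adjusted p = 0.317), and the alternative-pathway enzymes CYP27A1 and CYP7B1 had -0.14 ± 0.15 and -0.27 ± 0.14.

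HSD3B1 (chr4:101565229-101574110), named from the study's table, is a 3-beta-hydroxysteroid dehydrogenase, which acts on steroids after cholesterol. It had 63.4, 63.7, 40.0, 39.3 and 46.5 CPM in tallow pigs, 171, 123, 123, 140.1 and 111 in rapeseed pigs and 48.4, 70.7 and 101 in coconut pigs. All rapeseed pigs were above every other pig, and tallow overlapped coconut oil. The difference of -0.94 ± 0.18 (adjusted p = 0.0145) was -1.40 ± 0.21 from rapeseed oil and -0.49 ± 0.20 from coconut oil.

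Single genes of fatty acid handling were called. FABP1 (chr3:57850511-57854966), named from the study's table, is the fatty acid-binding protein of the hepatocyte. It had 1202, 1077, 794, 739 and 887 CPM in tallow pigs, 1791, 1339.9, 1631, 1723 and 1558 in rapeseed pigs and 1095, 1454 and 1979 in coconut pigs. Tallow pigs were below all rapeseed pigs, and coconut pig 1 alone among coconut pigs fell within the tallow range. The difference was -0.74 ± 0.16 (adjusted p = 0.0249), and it passed in 13 of the 16 fits, with -0.69 (adjusted p = 0.0509) without tallow pig 3. ACSM3 (chr3:25247723-25284063), a medium-chain acyl-CoA synthetase of mitochondria, had means of 21 ± 11.2, 61.1 ± 17.6 and 46.3 ± 12.4 CPM and a difference of -1.37 ± 0.28 (adjusted p = 0.0179). ABHD5 (chr13:27006331-27053760), the activator of adipose triglyceride lipase, rose by 1.00 ± 0.20 (adjusted p = 0.0145), with levels of 312 ± 109.9, 121 ± 31.4 and 200.3 ± 51.5 CPM, coconut oil lying in between.

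Among 21 genes of fatty acid oxidation and PPAR alpha targets, 0 passed with edgeR and 1 with DESeq2, with a median of -0.055. At an unadjusted p below 0.05 there were 4 (15.7% of all genes), 2 in each direction. FABP1 belongs to this list but stands outside the count, since its symbol comes only from the study's table. CPT1A, which admits long-chain fatty acids to the mitochondrion, had 313, 222, 245, 228 and 209 CPM in tallow pigs, 90.5, 92.3, 53, 168 and 127 in rapeseed pigs and 140.4, 199 and 264 in coconut pigs. Its tallow difference was 0.74 ± 0.19 (adjusted p = 0.0604), with 1.20 ± 0.23 from rapeseed oil and 0.28 ± 0.22 from coconut oil, so that the level with coconut oil was near that with tallow. Of 12 lipogenesis and desaturation genes 0 passed with edgeR and 1 with DESeq2. There were 3 at an unadjusted p below 0.05 (15.7% of all genes), 1 higher and 2 lower. THRSP, the lipogenic spot 14 protein, had the smallest p at -1.44 ± 0.37 (adjusted p = 0.0598), FASN had -0.11 ± 0.35 and SCD -0.51 ± 0.29. Of 11 genes of apolipoproteins and lipoprotein assembly 0 passed with edgeR and 0 with DESeq2. There was 1 at an unadjusted p below 0.05 (15.7% of all genes).

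**Figure D5:**
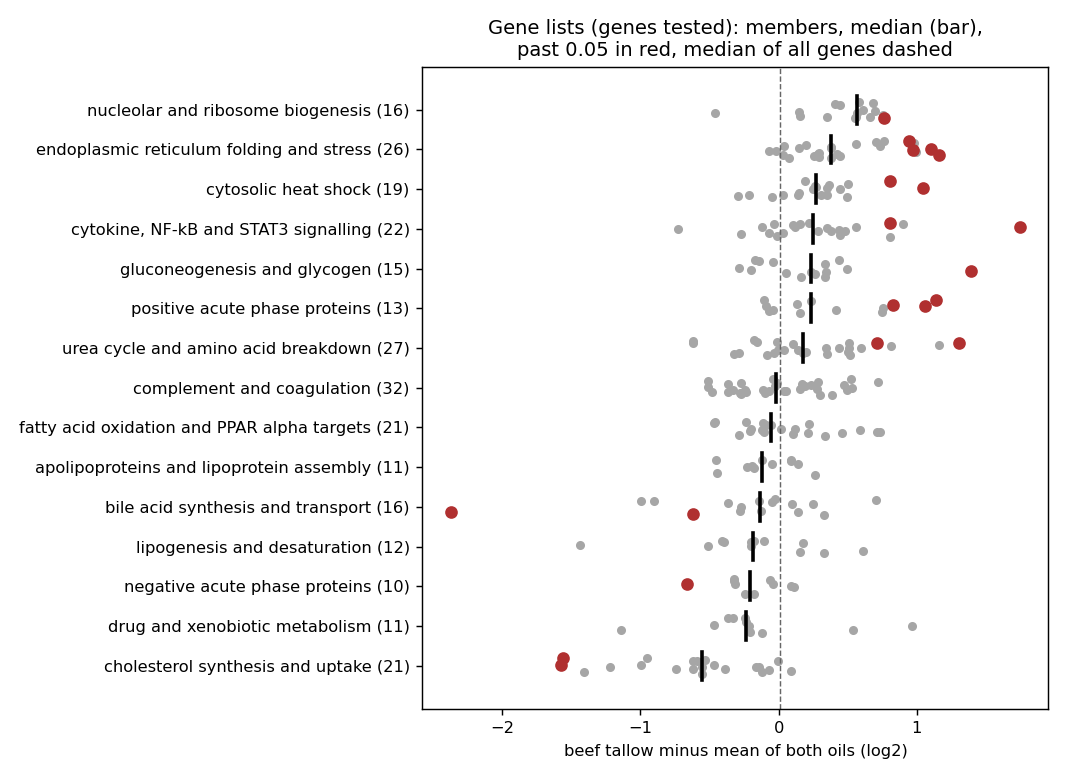
Each point is a tested member of a gene list at its log2 difference of beef tallow from the mean of both oils, red where past 0.05, with the list's median as a black bar and the median of all genes dashed. Medians run from -0.56 for cholesterol synthesis and uptake to 0.56 for nucleolar genes, and the number of genes tested stands beside each name.

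Of 27 genes of the urea cycle and amino acid breakdown, 2 were called, both higher (0.711% of all genes), and the median was 0.18. At an unadjusted p below 0.05, 7 were higher (8.97% of all genes) and 1 was lower (6.7% of all genes). There was 1 call without tallow pig 3 and 1 without tallow pig 4, while DESeq2 called 3 higher and 1 lower. HAL (chr5:87522483-87547489), histidine ammonia-lyase, which starts histidine breakdown, had 107, 173, 210.0, 149.8 and 207 CPM in tallow pigs, 114, 69.8, 46.5, 56.7 and 32.5 in rapeseed pigs and 39.9, 78.3 and 99.5 in coconut pigs. Tallow pig 1 was below rapeseed pig 1, and the other tallow pigs were above all oil pigs. The difference was 1.31 ± 0.24 (adjusted p = 0.013), with like values from each oil (1.39 ± 0.30 and 1.23 ± 0.28), and it passed in all 16 fits.

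CPS1 (chr15:113210038-113339086), carbamoyl phosphate synthetase, the entry of ammonia into the urea cycle, had 339, 398, 622, 353 and 387 CPM in tallow pigs, 212, 271, 261, 273 and 167 in rapeseed pigs and 253, 269.7 and 309 in coconut pigs. Every tallow pig was above every oil pig, with tallow pig 3 the highest. The difference was 0.71 ± 0.15 (adjusted p = 0.0239), and without tallow pig 3 it was 0.52 (adjusted p = 0.0623). SDS, serine dehydratase, had 1.16 ± 0.43 (adjusted p = 0.181), and GLUD1, glutamate dehydrogenase, had -0.62 ± 0.18 (adjusted p = 0.0837).

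SGK1 (chr1:29625786-29753619), a kinase induced by glucocorticoids and insulin, is no enzyme of glucose synthesis. It was the 1 called gene of 15 in the list of gluconeogenesis and glycogen (0.711% of all genes were called higher). It had 127, 114, 129.97, 265 and 126 CPM in tallow pigs, 61.8, 40.0, 58.2, 108 and 34.4 in rapeseed pigs and 33.8, 50.7 and 98.2 in coconut pigs. All tallow pigs were above all others, and tallow pig 4 was the highest. The difference was 1.39 ± 0.26 (adjusted p = 0.013), or 1.09 (adjusted p = 0.0634) without tallow pig 4. The enzymes themselves gave 0.34 ± 0.23 for G6PC1 and -0.04 ± 0.27 for PCK1, which catalyse the last and an early step of glucose synthesis.

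Nucleolar and ribosome biogenesis genes had the highest median of any list, 0.56, with 15 of 16 above 0. At an unadjusted p below 0.05 there were 12, all higher (8.97% of all genes). Yet there was 1 call with edgeR (0.711% of all genes were called higher) and 4 with DESeq2, which called more genes in all. Several members were reported as changed by the study in these same pigs, so these values in part follow from how the list was chosen. The median was 0.73 from rapeseed oil, 0.27 from coconut oil and 0.37 for coconut minus rapeseed oil. Without tallow pig 3 it was 0.44 with 2 calls, and without tallow pig 4 it was 0.57 with 0 calls. The called gene was RSL1D1 (chr3:31278394-31291205), a nucleolar protein of ribosome assembly, at 62.7, 62.6, 92.6, 70.1 and 58.6 CPM in tallow pigs, 31.6, 41.04, 44.0, 31.9 and 36.4 in rapeseed pigs and 33.9, 46.4 and 54.3 in coconut pigs. All tallow pigs were highest, and the difference was 0.76 ± 0.15 (adjusted p = 0.0145). NCL (nucleolin) and NOLC1, also of the nucleolus, had 0.66 ± 0.16 (adjusted p = 0.0539) and 0.76 ± 0.19 (adjusted p = 0.0556).

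Outside the list, POLR1G, a subunit of RNA polymerase I, which makes ribosomal RNA, was called. It had 36.7, 44.6, 64.3, 39.3 and 43.1 CPM in tallow pigs, 12.5, 19.5, 18.1, 14.4 and 16.7 in rapeseed pigs and 15.4, 29.7 and 44.8 in coconut pigs. Tallow pigs were above all rapeseed pigs and overlapped coconut pig 4. The difference was 1.07 ± 0.20 (adjusted p = 0.0137), and it passed in all 16 fits, at 0.90 to 1.14.

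Further genes among the strongest calls belong to none of the lists. ANK3, ankyrin-G, which ties membrane proteins to the spectrin skeleton, fell by 1.27 ± 0.23 (adjusted p = 0.013) to 16.2 ± 6.39 CPM from 41.9 ± 5.34 and 35.01 ± 10.8. FAM81A, of little known function, had 7.25 ± 3.20 CPM with all tallow pigs lowest, against 29.3 ± 8.32 with rapeseed oil and 15.2 ± 3.05 with coconut oil (adjusted p = 0.0095). Its separation was a near-tie at a low count, with the highest tallow pig at 12.23 CPM and the lowest coconut pig at 12.27. UPB1, which ends pyrimidine breakdown, and the aldo-keto reductase AKR1E2 were also lowest in all tallow pigs, at -0.80 ± 0.18 (adjusted p = 0.0313) and -1.03 ± 0.20 (adjusted p = 0.0143). The margins were thin, with the highest tallow pig at 339.3 CPM and the lowest coconut pig at 340.6 for UPB1. For AKR1E2 these values were 23.7 and 25.1. SLC5A6, the biotin and pantothenate transporter, rose by 0.87 ± 0.17 (adjusted p = 0.0154), and RAPGEF5, an exchange factor of Rap proteins named from the study's table, by 1.07 ± 0.22 (adjusted p = 0.0239), or 0.87 (adjusted p = 0.0689) without tallow pig 3. Lower with tallow were ANKS4B, a scaffold of the brush border, at -1.21 ± 0.26 (adjusted p = 0.0239, 0.0509 without tallow pig 3), and the elongation factor TCEA3, at -1.40 ± 0.31 (adjusted p = 0.0281). So were NUBPL, an assembly factor of respiratory complex I, at -1.09 ± 0.25 (adjusted p = 0.0353), and RTN4, a reticulon that shapes the endoplasmic reticulum, at -0.65 ± 0.15 (adjusted p = 0.0355). TCEA3 passed in 11 of the 16 fits, NUBPL in 8 and RTN4 in 6. Without tallow pig 3 the adjusted p-values of NUBPL and RTN4 were 0.0755 and 0.0712.

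Of 11 genes of drug and xenobiotic metabolism, 0 passed with edgeR and 1 with DESeq2, with a median of -0.24. At an unadjusted p below 0.05 there were 2, both higher (8.97% of all genes). They were POR, the electron donor of the cytochromes P450, at 0.97 ± 0.29 (adjusted p = 0.102) and the sulfotransferase SULT2A1, at 0.54 ± 0.14 (adjusted p = 0.0604). SULT2A1 was highest in all 5 tallow pigs.

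Because the diets held unequal numbers of gilts and barrows, the tallow difference was also compared between the sexes. Of 6891 genes, 0 passed the interaction with edgeR (smallest adjusted p 0.584) and 1 with DESeq2, and 313 (4.54%) had an unadjusted p below 0.05. The 71 called genes, chosen on pigs of both sexes, all had the same sign in gilts and in barrows, as did 62.6% of all genes, and 2 of them had an interaction p below 0.05. These 2 were ANK3, at -0.76 in barrows and -1.94 in gilts, and ABHD5, at 1.38 and 0.51, both with an adjusted interaction p of 0.99. The tallow difference of CYP7A1 was -2.21 in barrows and -2.64 in gilts, that of EGFR 1.36 and 1.12, and that of HSPA5 1.22 and 1.14. With 2 tallow gilts the interaction has little precision, and without tallow pig 1, which leaves pig 3 as the lone tallow gilt, 108 genes passed it, the lone gilt being assumed to vary like the others. Without coconut pig 4 there was 1.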

How the data were processed

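Liver RNA of 16 pigs was sequenced from 3′ ends (QuantSeq FWD, HiSeq 2500). After trimming (FLEXBAR 3.5.0), the authors aligned the reads to Sus scrofa 11.1 (TopHat 2.1.1), and HTSeq-count 0.11.1 assigned them to genes of Ensembl 96. The deposited values are whole-number counts for 25880 genes without normalization. The strand setting of the counting is not given in the sources used here, so overlapping genes are uncertain, and tallies of unassigned reads (44.9% to 57.2% per pig) entered no test.

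The 3 diets were fitted together without covariates by edgeR 4.0.16 (R 4.3.3, TMM, filterByExpr with thresholds of 10 and 15 reads). Tallow was tested against the mean of both oils, each weighted 0.5, with adjusted p-values (Benjamini-Hochberg) at 0.05 and no fold threshold. The SE is the difference divided by the square root of the F statistic. The test against each oil singly takes the larger of both p-values where the signs match. Leave-one-out fits and 9 other settings were tried, with DESeq2 1.42.0 and limma 3.58.1 among them, and the scripts were tested on simulated data. DESeq2 was run without the filterByExpr filter, so its counts differ from those of edgeR in more than the software. It called more genes in all, so its list counts do not compare with the shares of all genes, which are edgeR's. Counting error is part of the spread between pigs.

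Symbols were known for 14857 identifiers, and 9 more were named from the study's gene table. Positions are RefSeq's on the same assembly, by symbol. Named genes are those with a symbol among the 15 smallest adjusted p-values in each direction, list members past 0.05, the genes the study measured by qPCR, and the smallest p of each list. Others, among them RAPGEF5 and the second HSP90B1 identifier, were picked with their values known. Many called members had been reported by the study as changed in these same pigs. Members and lists were chosen with earlier results of these data known, so list counts and medians are descriptions, not independent support. The qPCR values were not analysed here, and a few genes, kept in all fits and lists, are not reported by name here.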

Additional observations from a re-analysis of the deposited data

Results flagged for a closer look

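Single pigs lay far from the rest of their diet in 11 of 162 groups of values checked for the named genes and the library measures. A pig was taken as far out where its gap to the nearest other pig was a large share of the group's range (Dixon's criterion at 95%). In independent values with a normal spread, chance alone gives about 5%. The levels here were not log-transformed and many of the genes were chosen by their calls. The count of 11 is therefore not shown to exceed chance.

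Tallow pig 4 had 3580.5 CPM of ITIH4, against 2037 to 2294 in the other tallow pigs, and 264.6 CPM of SGK1, against 114 to 129.97. Tallow pig 3 had 44431 CPM of FGA, against 22898 to 28622, 64.3 CPM of POLR1G, against 36.7 to 44.6, and 621.6 CPM of CPS1, against 339 to 398. The same pig had 33.2% of its reads with several alignments, against 19.3% to 22.8%.

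Among coconut pigs, pig 5 had 548.3 CPM of FDFT1, against 212 to 246 in the other 5, and 46.5 CPM of MVD, against 8.47 to 21.9. Pig 4 had 488.9 CPM of ABCB11, against 392 to 426. Pig 3, the shallowest library, had 7608 CPM of TTR, against 4517 to 5664, and 28.0% of its reads on the 10 most counted genes, against 21.2% to 23.3%.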

How the results depend on the processing

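The 71 genes of the tallow comparison became 196 with DESeq2, also run without a filter on low counts (68 shared). They became 161 with edgeR without that filter (66 shared). The replicate number as a block gave 41 (34 shared), and all 11 oil pigs as 1 group gave 40 (40 shared). With each pig left out the count ran from 12 to 120. The count against each oil singly, 2, became 7 without a filter, 1 with at least 10 reads in every pig, 1 with thinned counts, and 0 to 3 without 1 pig. The plant oil count, 6, became 45 with DESeq2, 32 without a filter, 2 with sex as a covariate and 0 to 22 without 1 pig, the most without tallow pig 3. The sex interaction count, 0, became 17 without a filter, 1 with DESeq2 and 0 to 108 without 1 pig. The cause of these shifts was not tested. RLE normalization, sex as a covariate, thinned counts, at least 10 reads in every pig and limma-voom gave 72, 66, 61, 103 and 54 genes in the tallow comparison, within 1.5 times of 71. Over all alternatives and left-out pigs, the named genes kept direction and side of 0.05 in 985 comparisons, lost the call in 159, gained it in 24 and reversed in 0.

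Replicate numbers did not pair the pigs: deviations of same-numbered pigs correlated at -0.25 to 0.14 (median 0.046, 15 pairs), against a median of -0.017 for 70 other pairs, and 4 of 16 pigs correlated best with a pig of their own number. Depth limits genes of low count, and with 5 tallow pigs many calls near 0.05 depended on 1 animal.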

Other observations

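The genes given here were called and were picked after their values were seen. ATF5, a transcription factor translated under stress, had 79.5, 49.9, 108, 51.0 and 109.5 CPM in tallow pigs, 63.3, 40.0, 41.4, 34.0 and 38.4 in rapeseed pigs and 26.9, 41.3 and 56.9 in coconut pigs, a difference of 0.92 ± 0.21 (adjusted p = 0.0313). SESN2, a leucine-sensing inhibitor of mTORC1, had means of 57.8 ± 22.8, 21.03 ± 6.66 and 32.6 ± 14.9 CPM and a difference of 1.13 ± 0.26 (adjusted p = 0.0355). HSPA13, a microsomal Hsp70 relative, had 1.10 ± 0.24 (adjusted p = 0.0249), and SRPRB, a subunit of the receptor that docks ribosomes to the endoplasmic reticulum, 0.78 ± 0.18 (adjusted p = 0.0355).

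SIK1, a kinase induced by cyclic AMP, had 55.8, 32.9, 24.3, 98.8 and 18.8 CPM in tallow pigs, 17.7, 19.5, 20.7, 29.9 and 5.90 in rapeseed pigs and 9.68, 16.4 and 22.8 in coconut pigs, with overlap and with tallow pig 4 the highest (difference 1.43 ± 0.32, adjusted p = 0.0342). ZBTB16, a transcription factor induced by glucocorticoids, had means of 112 ± 26.8, 39.7 ± 20.2 and 80.0 ± 15.9 CPM (difference 0.98 ± 0.21, adjusted p = 0.0239). PTPN1, the phosphatase that turns off the insulin and leptin receptors, had the smallest called difference, 0.56 ± 0.13 (adjusted p = 0.0387), with all 5 tallow pigs the highest at 114, 95.5, 129, 129.6 and 98.4 CPM against 76.8 ± 4.00 and 76.9 ± 11.99.

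PPAT, which starts purine synthesis, had a difference of 0.84 ± 0.20 (adjusted p = 0.0387). BBOX1, the last enzyme of carnitine synthesis, had 20.6, 30.8, 17.7, 26.6 and 11.06 CPM in tallow pigs, 51.5, 34.9, 59.5, 58.7 and 48.2 in rapeseed pigs and 21.03, 31.7 and 37.9 in coconut pigs, a difference of -0.90 ± 0.21 (adjusted p = 0.0391). CLTRN (collectrin), a partner of amino acid transporters, was lowest in all 5 tallow pigs, with a mean of 47.9 ± 9.14 CPM against 72.8 ± 4.61 and 71.5 ± 7.71 (difference -0.59 ± 0.14, adjusted p = 0.0446).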
